A study of Homo sapiens with 12 samples.

Results

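Nucleolus-associated domains (NADs) are parts of chromosomes recovered together with isolated nucleoli. Maps of NADs were read at 10 genes grouped as transcription factors and markers of the naive pluripotent state. The 10 are the KLF genes KLF2, KLF4, KLF5 and KLF17, the regulators TFCP2L1, PRDM14, ZFP42 and ESRRB, the growth factor FGF4 and the surface protein SUSD2. The members were chosen by name, and all 10 were found among 19821 protein-coding genes placed on chromosomes 1 to 22 and X. For each, the gene body (the whole span of its RefSeq model on GRCh38) and the 200 kb on either side of it were read against the lists.

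The study used H9, an established line of human embryonic stem cells, in 2 states that the labels call naive (kept in RSeT medium) and primed (kept in mTeSR medium), with no further treatment. DNA of the nucleolar fraction and DNA of whole cells were sequenced from 3 replicates of each state, 12 libraries in 4 groups. The deposited data are 2 lists of NAD regions on hg38, a naive one and a primed one, and each stands for 6 libraries. Both states come from 1 cell line, and the lists carry no score, so a base is either in a region or not. Read depth is unknown. Replicates were not kept apart in the lists, so values are printed without an error and the states were not tested against each other; every difference below is a difference between 2 lists. Region limits lie on a 10 kb grid, so a boundary closer than 10 kb to a gene's end is not resolved. How naive the RSeT cultures were cannot be checked in DNA maps and was not tested.

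Naive pluripotency is the state of the epiblast before implantation, held in culture by LIF and STAT3 signalling and by damping of FGF and ERK signalling. Its regulators include KLF factors, zinc finger proteins that bind CACCC and GC-rich boxes, together with TFCP2L1, a target of STAT3, and PRDM14, a repressor of FGF signalling genes and of DNA methylation. ZFP42, also called REX1, is a classical marker of the undifferentiated state, ESRRB is a nuclear receptor central to mouse naive cells, FGF4 is the ligand that drives ERK signalling, and SUSD2 is used to sort human naive cells. NADs as a class are rich in silent chromatin.

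The members spread over all 4 possible outcomes. KLF2, KLF17, TFCP2L1 and ESRRB had part or all of their bodies in NADs of both states. KLF5 and PRDM14 lay in naive NADs only, ZFP42 and FGF4 in primed NADs only, and KLF4 and SUSD2 in neither. That is 6 of 10 in naive NADs and 6 of 10 in primed NADs, where any overlap counts, against 76.8% and 81.8% of all coding genes. Over all coding genes 65.2% were in both lists, 11.6% in the naive list only, 16.6% in the primed list only and 6.57% in neither. With 10 members, each outcome that holds 2 genes moves by 10 percentage points when 1 gene changes place, so nothing particular to these genes is read from the counts. The median member had 16.6% of its body in naive and 51.1% in primed NADs, and the median coding gene 35.6% and 75.8%.

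**Figure D1:**
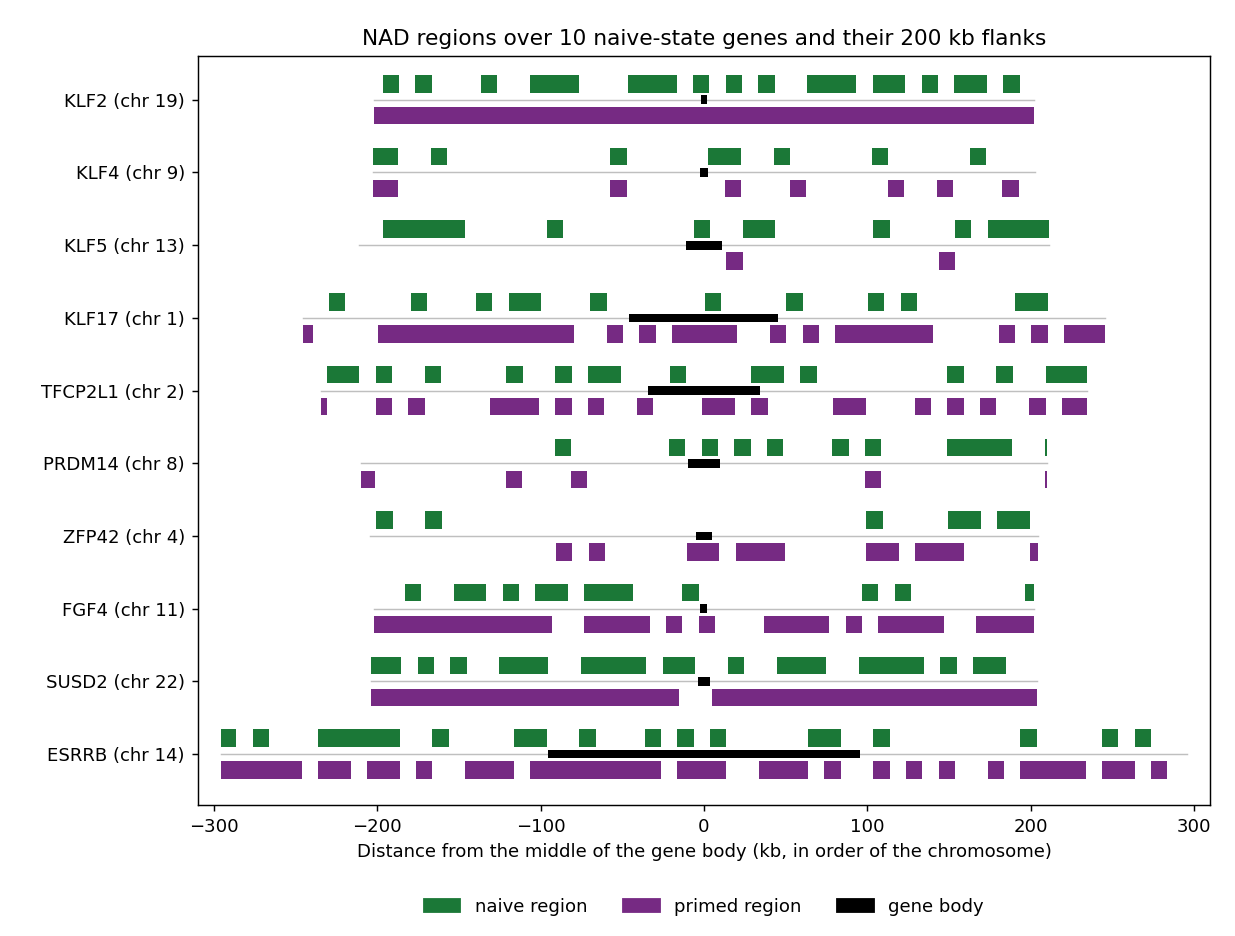
Map of the naive regions (green, above the line) and primed regions (purple, below the line) across the body (black) and 200 kb flanks of each gene, with distance in kb from the middle of the body on the horizontal axis. KLF2 lies inside 1 unbroken primed region, SUSD2 in a 20 kb interruption between primed regions, and KLF5 has 2 primed regions in its window.

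Gene length bears on whether a gene touches a region. The 5 members shorter than 10 kb (KLF2, KLF4, ZFP42, FGF4 and SUSD2) included 1 in naive and 3 in primed NADs, and 54.3% and 78.4% of coding genes of that length were touched. The 5 longer members (KLF5, KLF17, TFCP2L1, PRDM14 and ESRRB) included 5 in naive and 3 in primed NADs, and 85.6% and 83.2% of coding genes of 10 kb or more were touched. The 4 members that no naive region touched were thus all under 10 kb. Whole coverage was found for 1 member in naive NADs, KLF2, and for 3 in primed NADs, KLF2, ZFP42 and FGF4, against 12.6% and 41.8% of all coding genes.

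**Figure D2:**
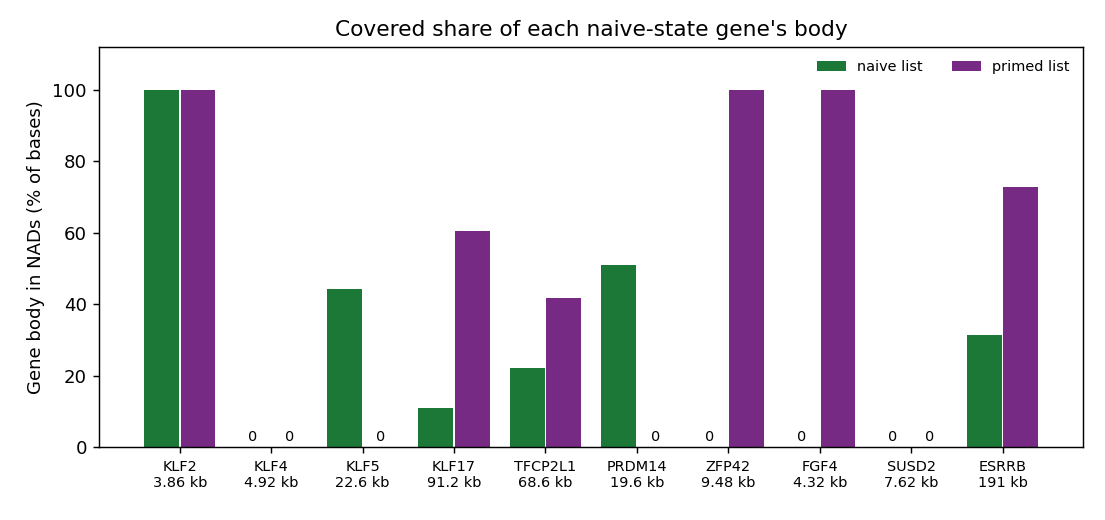
Bars give the percentage of bases of each gene body in the naive list (green) and the primed list (purple), with the length of the body under each name; there is 1 list per state, so there are no error bars. ZFP42 and FGF4 stand at 0 in the naive list and at 100% in the primed list.

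Among the KLF genes, 2 were in both lists, 1 in the naive list only and 1 in neither. KLF2, a factor that can sustain naive self-renewal (chromosome 19, 16324826 to 16328685, 3.86 kb), was covered whole in both lists. In primed cells it lay inside a single region of 2880 kb, from 14310001 to 17190000, which also took in all of its flanks. In naive cells a region of 1 grid step, 16320001 to 16330000, covered it, and 13 naive regions together covered 51.5% of the flanks. Chromosome 19 is nearly filled by primed regions, which touched 99.9% of its 1410 coding genes, so the position of KLF2 in the primed list is that of its chromosome.

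KLF4, one of the original reprogramming factors (chromosome 9, 107484852 to 107489769, 4.92 kb), was in neither list. The nearest naive region, of 20 kb, began 0.231 kb past the higher end of the body, which is where the gene starts, and the nearest primed region 10.2 kb away. Its flanks were sparse in both lists, with 21.3% in naive and 18.8% in primed NADs, and 275 of their 400 kb were in neither. The median coding gene of chromosome 9 had 37.3% and 65.6% of its flanks covered, so the primed share at KLF4 was 46.8 percentage points below that median and the naive share 16.0 points below.

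KLF5, which acts beside KLF2 and KLF4 in self-renewal (chromosome 13, 73054976 to 73077538, 22.6 kb), was 44.3% covered in naive and 0% in primed NADs. The naive coverage came from 1 region of 10 kb inside the gene, 73060001 to 73070000. The surroundings went the same way: 34.4% of the flanks were in naive NADs and 5% in primed NADs, and no base of the flanks was in both lists. The median coding gene of chromosome 13 had 42.5% and 56.0% of its flanks covered, so both shares at KLF5 were below the median. The naive-minus-primed flank difference of KLF5, 29.4 points, was the largest among the members and stood at percentile 95.6 of all coding genes. The naive share alone stood at percentile 41.3 and the primed share at percentile 9.49. The nearest primed region lay 2.46 kb beyond the gene, from 73080001 to 73090000.

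KLF17, a hallmark of human naive cells and early embryos (chromosome 1, 44043927 to 44135140, 91.2 kb), was 60.5% covered in primed and 11.0% in naive NADs. Primed coverage came from regions at 44050001 to 44060000, 44070001 to 44110000 and 44130001 to 44140000. The sole naive region in the body, 44090001 to 44100000, lay within the middle one of these, so all 10 kb of naive coverage were shared. RefSeq promoters list 1 transcription start for KLF17, at 44118821 on the plus strand. Of these regions, only the primed one from 44130001 to 44140000 lies past that start. The naive region and the other primed ones lie before it, so being in both lists rests on the whole span. Flanks followed the body, with 64.0% in primed and 27.5% in naive NADs. Its neighbour KLF18, a close relative 2.68 kb away, had body shares of 57.2% (primed) and 42.8% (naive).

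Among the other regulators, TFCP2L1 (chromosome 2, 121216587 to 121285202, 68.6 kb) was the most evenly placed. Its body was 22.2% in naive and 41.7% in primed NADs, and its flanks 37.5% and 40%. Of the 15.2 kb of naive and 28.6 kb of primed body sequence, 5.20 kb were shared. With 41.7% of the body primed, partial overlap would arise from unrelated placement too, and the overlap was not tested. That shared stretch is the end of the body at which transcription starts, where the naive region 121280001 to 121300000 and the primed region 121280001 to 121290000 overlap.

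PRDM14 (chromosome 8, 70051651 to 70071252, 19.6 kb) was 51.0% covered in naive NADs, by the region 70060001 to 70070000, and 0% in primed NADs. No primed region came within 61.7 kb of the gene. In naive cells regions of 10 kb alternated with open steps on both sides, at 70040001 to 70050000, 70080001 to 70090000 and 70100001 to 70110000. The flanks were 25.3% in naive and 9.90% in primed NADs, both below the medians of chromosome 8, 34.0% and 42.2%. PRDM14 and KLF5 are thus the members with naive coverage of the body and few primed regions nearby, and both rest on 1 region of a single grid step.

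ZFP42 (chromosome 4, 187995771 to 188005246, 9.48 kb) showed the reverse: primed NADs held 100% of its body and naive NADs 0%. The primed region 187990001 to 188010000 is 20 kb long and encloses the gene, and another of 30 kb follows at 188020001. The nearest naive region was 94.8 kb away. Chromosome 4 is poor in primed NADs: its median coding gene had 10.1% of the flanks covered, and 52.2% of its coding genes were touched. The primed flanks of ZFP42 stood at 28.9%, and its naive flanks, at 17.5%, were the lowest of the 10 members, at percentile 4.99 of all coding genes.

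ESRRB (chromosome 14, 76310777 to 76501837, 191 kb) is the longest member, and its body held the most kilobases in both lists, 50 kb. Primed regions covered 72.9% of the body, among them one of 80 kb, 76300001 to 76380000, which holds its first listed start; that start lay 776 bases from a naive region. Naive regions covered 31.4%, as 4 single steps and 1 region of 20 kb. These came to 60 kb. Flanks were 62.5% in primed and 34.8% in naive NADs, both below the median of chromosome 14, 88.0% and 47.7%.

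FGF4 (chromosome 11, 69771022 to 69775341, 4.32 kb), the ligand among the members, was covered whole by a primed region of 10 kb, 69770001 to 69780000, and was at 0% in naive NADs. A naive region, 69760001 to 69770000, ended 1.02 kb short of the gene, within the resolution of the grid. Primed regions covered 72.5% of its flanks and naive regions 31.3%. The FGF genes beside it differed: FGF3, 34.6 kb away, was 99.7% in primed and 0% in naive NADs, while FGF19, 67.0 kb away on the other side, was 69.5% covered in both.

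SUSD2 (chromosome 22, 24181487 to 24189106, 7.62 kb), the surface marker, had no base in either list although its surroundings were densely covered in both. Its flanks were 96.9% in primed NADs, second to KLF2, and 59.6% in naive NADs, the highest of the 10 members, and 2.38 kb of the 400 kb were in neither. The primed interruption ran from 24170001 to 24190000, between regions of 220 kb and 370 kb, and the naive one from 24180001 to 24200000. The nearest primed region lay 0.894 kb past the higher end of the gene and the nearest naive region 1.49 kb before its lower end, both inside 1 grid step. Of 5921 coding genes with at least 90% of their flanks in primed NADs, 26 had a body at 0, or 0.439%. Among those under 10 kb, as SUSD2 is, the count was 25 of 2156, or 1.16%, and on chromosome 22 it was 4 of 257, or 1.56%. This comparison was chosen after the values of SUSD2 had been seen and has no test. Neighbouring CABIN1, a calcineurin inhibitor gene 2.86 kb away, was 94.8% in primed NADs, and GGT5, a gamma-glutamyltransferase gene, 100%.

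Where transcription starts was read from RefSeq promoters on GRCh38.p14, which matched 7 of the 10 members with 10 listed starts. PRDM14, FGF4 and SUSD2 had no entry. Of the 7, KLF2, TFCP2L1 and ESRRB had a listed start in a naive region and KLF2, TFCP2L1, ESRRB and ZFP42 in a primed region. Over 15812 coding genes in the table these shares were 44.6% and 67.4%. KLF5 has listed starts at 73054976 and 73059005, the second 995 bases short of the naive region inside the gene, and neither start was in a region. The listed start of KLF17, at 44118821, was in neither list, 8820 bases from the nearest primed and 18820 bases from the nearest naive region, although its body touched both.

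The upstream sequences of 4 members stand for these outcomes: KLF2 (start in both lists), ZFP42 (primed only), KLF4 (neither, with the naive region 0.231 kb away) and KLF17 (neither, body in both). Each line gives the 250 bases before the start, 5′ to 3′ on the gene's strand. Capitals mark CACCC, the core letters of the box that KLF factors bind, searched on both strands (so also as GGGTG), with overlapping matches counted separately.
KLF2, chr19:16324576-16324825, plus strand: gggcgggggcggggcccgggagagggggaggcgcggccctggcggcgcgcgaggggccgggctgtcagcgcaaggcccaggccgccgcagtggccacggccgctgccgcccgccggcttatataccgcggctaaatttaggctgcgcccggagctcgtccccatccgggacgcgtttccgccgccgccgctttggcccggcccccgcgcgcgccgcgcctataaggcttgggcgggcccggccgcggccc
ZFP42, chr4:187995521-187995770, plus strand: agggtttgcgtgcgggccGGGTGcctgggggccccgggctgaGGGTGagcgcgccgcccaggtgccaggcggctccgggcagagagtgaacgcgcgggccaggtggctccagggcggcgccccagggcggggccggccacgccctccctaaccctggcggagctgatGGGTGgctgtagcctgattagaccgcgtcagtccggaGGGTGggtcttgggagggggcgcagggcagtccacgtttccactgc
KLF4, chr9:107489770-107490019, minus strand: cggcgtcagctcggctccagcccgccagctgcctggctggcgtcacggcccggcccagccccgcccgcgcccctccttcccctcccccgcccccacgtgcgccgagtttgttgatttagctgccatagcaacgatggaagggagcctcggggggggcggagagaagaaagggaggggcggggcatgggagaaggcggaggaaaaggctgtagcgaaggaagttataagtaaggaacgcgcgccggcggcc
KLF17, chr1:44118571-44118820, plus strand: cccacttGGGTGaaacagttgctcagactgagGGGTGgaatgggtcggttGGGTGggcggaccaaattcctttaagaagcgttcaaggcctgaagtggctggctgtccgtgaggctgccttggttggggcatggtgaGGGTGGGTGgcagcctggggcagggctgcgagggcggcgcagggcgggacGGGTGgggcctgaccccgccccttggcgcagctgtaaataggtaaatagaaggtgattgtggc
These letters occurred 6 times upstream of KLF17 and 4 times upstream of ZFP42, and at neither KLF2 nor KLF4. At least 1 match was present in 58.4% of all 22132 upstream windows of coding genes, in 58.3% of those with a start in both lists, 54.4% in the naive list only, 61.3% in the primed list only and 56.5% in neither. GC content was 80% for KLF2, with 41 CG dinucleotides, 74.4% for ZFP42, 69.2% for KLF4 and 62.8% for KLF17, and the median over all windows was 62%. The 2 KLF5 windows differed most within 1 gene, with 40.8% GC at the first start and 70.8% at the second. Median GC was 62.4% for starts in both lists, 59.2% in the naive list only, 63.6% in the primed list only and 59.6% in neither. The motif AAGGTCA of ESRRB-type receptors and GGTCTCTAA, reported for PRDM14, matched none of the 10 member windows on either strand, and 2.87% and 0.158% of all windows.

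The flanks of the 10 members were compared next, since they average over more grid steps than the bodies. Primed shares ran from 5% at KLF5, 9.90% at PRDM14 and 18.8% at KLF4 to 96.9% at SUSD2 and 100% at KLF2, with a median of 51.3%. Naive shares ran from 17.5% at ZFP42 to 59.6% at SUSD2, with a median of 32.9%. The medians over all coding genes were 67.5% and 37.5%. The primed order therefore separates KLF5, PRDM14, KLF4 and ZFP42, all under 30%, from TFCP2L1 at 40%, then ESRRB, KLF17 and FGF4 between 62.5% and 72.5%, and SUSD2 and KLF2 near the top. The naive shares of 6 members lay close together, between 25.3% and 37.5%, as for KLF17 (27.5%) and FGF4 (31.3%).

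**Figure D3:**
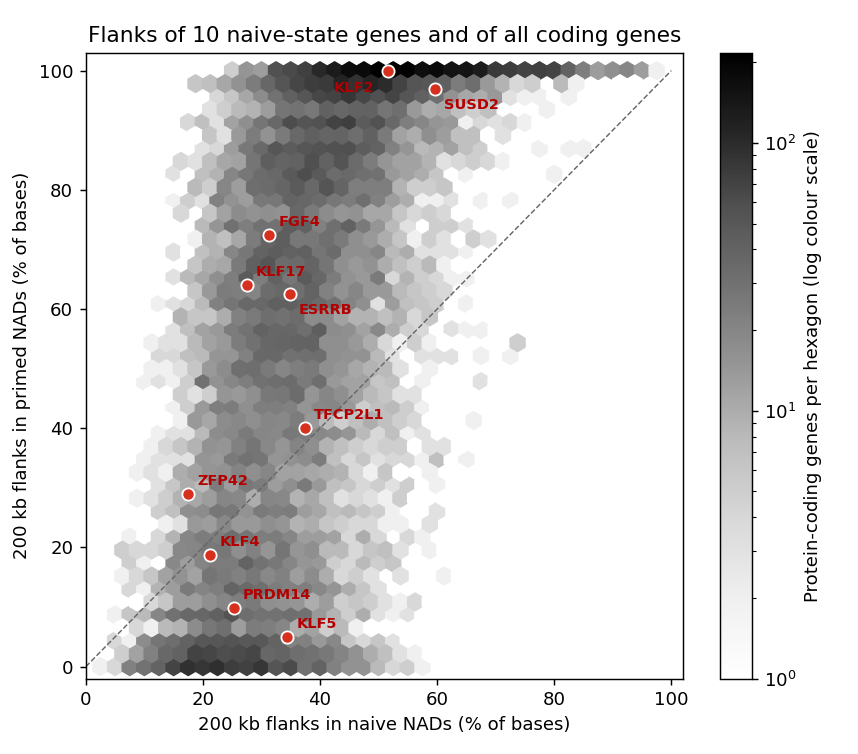
Each grey hexagon counts protein-coding genes (log colour scale) by the share of their 200 kb flanks in naive (horizontal) and primed (vertical) NADs, in percent of bases; red points are the 10 naive-state genes and the dashed line marks equal shares. KLF5, PRDM14 and KLF4 lie below the line, and the other 7 above it.

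Naive flank coverage exceeded primed coverage at 3 of 10 members, KLF5, PRDM14 (by 15.4 points) and KLF4 (by 2.5 points, which is 1 grid step). Over all coding genes this held for 25.9%, so the count is near the background. The other extreme was KLF2 at -48.5 points, then FGF4 at -41.2 and SUSD2 at -37.3, and the median member was at -19.6 points against -27.5 for all coding genes.

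Of the 4000 kb of flanks together, 34.1% were in naive and 49.9% in primed NADs, and for all coding genes, whose flanks overlap one another and so count some sequence repeatedly, 38.5% and 60.0%. Sequence in both lists made up 20.9% of the members' flanks, naive-only 13.2%, primed-only 29.0% and neither 37.0%, against 26.6%, 11.9%, 33.4% and 28.0% for all coding genes. The shared part was 61.3% of the naive and 41.9% of the primed sequence, and 69.0% and 44.3% for all coding genes. Shared sequence was unevenly held: at KLF2 100% of naive flank sequence was also primed and at SUSD2 95.8%, at PRDM14 11.1% and at KLF5 0%. Primed regions covered 100%, 96.9%, 9.90% and 5% of these flanks, in the same order. The spread therefore largely restates primed coverage, and at KLF2 it could not have been other than 100%.

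**Figure D4:**
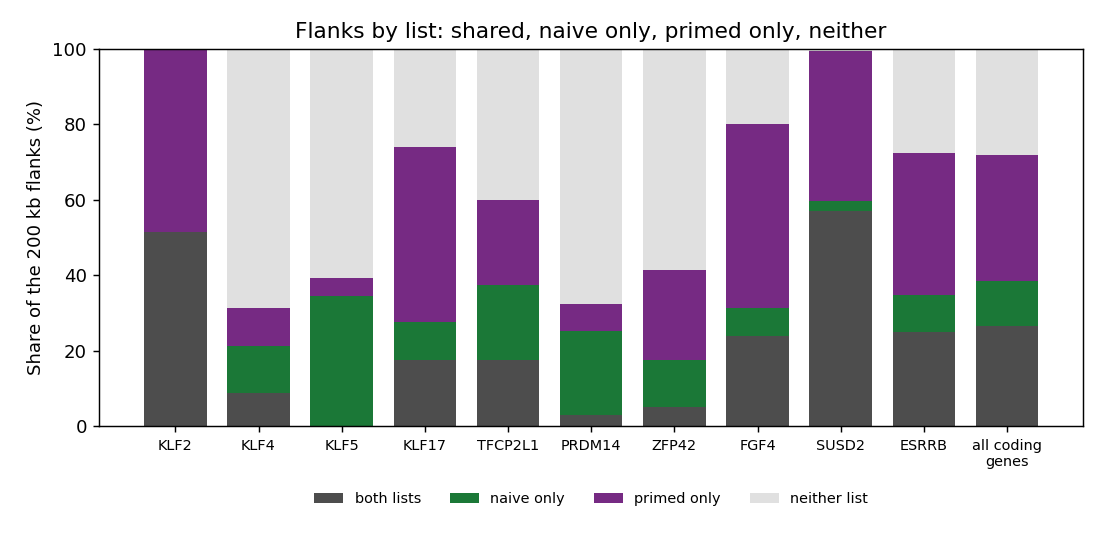
Stacked bars divide the 400 kb of flanks of each gene into sequence in both lists (dark grey), naive only (green), primed only (purple) and neither (light grey), in percent; the last bar gives all protein-coding genes. KLF5 has no shared sequence, and KLF2 has none that is uncovered or naive only.

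Other coding genes with any part inside the flanks numbered 37, of which 33 touched a naive and 37 a primed region, against 76.8% and 81.8% of all coding genes. Whole bodies were counted, also where they run beyond the flanks, as NCOA2 does. Such a rule favours long genes, and 85.6% and 83.2% of coding genes of 10 kb or more were touched. Lengths were not matched. Neighbours wholly inside primed regions numbered 23 (41.8% of all coding genes were), with 9 of the 9 neighbours of KLF2 and 7 of the 11 neighbours of KLF17 among them. Genes that were at least 90% covered in one list and at 0% in the other were 4, all covered in the primed list: CIB3 beside KLF2, ARTN and CCDC24 beside KLF17, and FGF3 beside FGF4. Of all coding genes 11.3% met this rule in the primed direction and 1.96% in the naive direction, so 4 of 37 is near the background. The nearest neighbours of KLF2, AP1M1 and EPS15L1, were both wholly in primed NADs, with 58.3% and 59.9% of their bodies in naive NADs. SLC6A9, a glycine transporter gene beside KLF17, was 28.6% in naive and 42.8% in primed NADs. KLF4, KLF5, TFCP2L1, PRDM14 and ESRRB each had 1 coding neighbour. RAD23B, a DNA repair gene beside KLF4, was 54.6% in naive and 34.2% in primed NADs. PIBF1 beside KLF5 was 38.4% and 3.36%, and NCOA2, a nuclear receptor coactivator gene beside PRDM14, 52.0% and 26.0%. CLASP1 beside TFCP2L1 was 35.1% and 55.1%, and GPATCH2L beside ESRRB 59.8% and 64.1%. TRIML2, the nearest coding gene to ZFP42 within its flanks, was 52.4% covered in both lists.

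Relatives of the members were taken family by family. Of 23 other KLF and SP genes, 17 were in naive and 20 in primed NADs, 1 in naive NADs only and 4 in primed NADs only, with median flanks of 33.6% and 60.2%. Closest to a member, by the mean absolute difference over 4 values (body and flank shares in both lists), was KLF9 for KLF17 (5.01 points), SP5 for KLF4 (5.15 points), SP4 for KLF5 (6.28 points) and KLF13 for KLF2 (12.0 points). SP4 was the sole other family gene in naive NADs only, with 28.6% of its body covered.

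Of 15 other PRDM genes, which encode zinc finger proteins with a PR domain, 13 were in naive and 11 in primed NADs, and none was in primed NADs only. Their median flanks were 30% in naive and 20% in primed NADs. Pooled over the family the shares ran the other way, 35.3% in naive and 40.1% in primed NADs, and 8 of the 15 genes had the higher share in the naive list, so the order is not settled. MECOM was the closest to PRDM14 (6.91 points), with 34.5% of its body in naive and 0% in primed NADs, and PRDM8 was likewise in naive NADs only.

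Of 21 other FGF ligand genes, 15 were in naive and 16 in primed NADs, with median flanks of 40.6% and 75%. FGF3 was the closest to FGF4 (1.01 points), and the pair share part of their flanks. FGF2 and FGF5, the ligand added to primed cultures and a marker of primed cells, were the 2 FGF genes in naive NADs only, chosen after their values were seen, with 25.5% and 54.9% of their bodies covered. Among 5 other CP2 and grainyhead genes, all were in naive and 4 in primed NADs, and GRHL1 was closest to TFCP2L1 (6.41 points). All 4 other oestrogen and oestrogen-related receptors were in naive and 3 in primed NADs; ESR2, on the same chromosome as ESRRB, was closest to it (6.37 points), with body shares of 56.6% (primed) and 35.7% (naive). ESRRG had 28.4% of its body in naive and 0% in primed NADs. YY1 and YY2, the relatives of ZFP42, were in both lists, with flanks of 85% and 90% in primed NADs, so that even the closer one, YY1, differed from ZFP42 by 38.2 points. Of 5 other SUSD genes, 5 were in naive and 4 in primed NADs, and the closest to SUSD2, SUSD6, differed by 37.6 points.

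**Figure D5:**
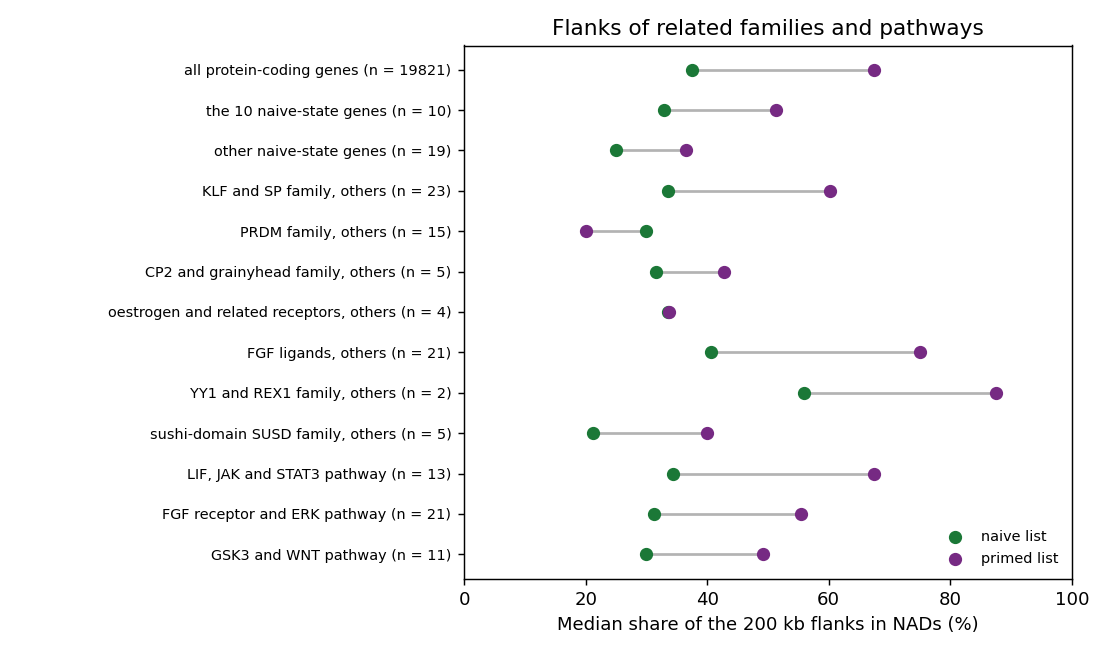
Points give the median share of 200 kb flanks in naive (green) and primed (purple) NADs, in percent, for all protein-coding genes, the 10 naive-state genes, the other members of their families and the gene lists of related pathways, with the number of genes in each. The naive median of the PRDM genes (30%) is above their primed median (20%), while their pooled shares run the other way. The 2 points of the oestrogen and related receptors nearly coincide, although the primed shares of these 4 genes ran from 0% to 87.5%. Their pooled shares were 30.1% in naive and 38.8% in primed NADs.

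Other genes of the naive state and of its signalling pathways were described in the same way. Of 19 further naive-state genes, 11 were in naive and 13 in primed NADs, 3 in naive only and 5 in primed only, with median flanks of 25% and 36.5%. DPPA3, a maternal factor that guards against DNA methylation, and GBX2, a homeobox gene, had 100% of their bodies in primed and 0% in naive NADs, and TRIM60 82.1% and 0%. KHDC3L, an oocyte gene, had 100% in naive and 0% in primed NADs.

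In the LIF, JAK and STAT3 list 10 of 13 genes were in naive and 10 of 13 in primed NADs, with median flanks of 34.4% and 67.5%. LIF, the ligand, lay wholly in primed NADs and at 0% in naive NADs, and JAK1, the kinase, had 12.8% of its body in naive and 0% in primed NADs. STAT3 was 73.4% in primed and 35.5% in naive NADs. In the FGF receptor and ERK list 16 of 21 genes were in naive and 17 in primed NADs, with median flanks of 31.3% and 55.4%. MAPK3 (ERK1) and the immediate early gene EGR1 were wholly in primed NADs and at 0% in naive NADs, the receptor FGFR4 was at 72.5% and 0%, and SPRY2, a feedback inhibitor, had 78.1% of its body in naive and 0% in primed NADs. In the GSK3 and WNT list 9 of 11 genes were in naive and 11 in primed NADs, with median flanks of 30% and 49.1%. PORCN, the acyltransferase of WNT ligands, was at 100% in primed and 0% in naive NADs, and TCF7 at 29.5% and 0%.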

How the data were processed

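Nucleolar and whole-cell DNA of H9 cells were made into PCR-free libraries of 350 bp fragments read as 150 bp pairs, per the labels' protocols. The authors deposited region lists (chromosome, start, end on hg38). Per the submitters' processing notes, the tools were BWA, SAMtools 1.10 and SICER. For calling settings, replicate handling and depth, the entry is: not given in the sources used here. Grouping followed the sample titles. On checking, every start fell on a multiple of 10 kb (8 naive and 12 primed ends did not), and neither list held touching regions.

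Genes came from RefSeq on GRCh38.p14 (153 coding genes on other scaffolds were left out) and upstream windows from its promoters. Covered bases were counted with numpy 2.4.6 and pandas 2.3.3 under Python 3.11.15 and drawn with matplotlib 3.10.9; the interval code was tested on simulated regions. A gene counts as in a NAD when any base overlaps. Flanks exclude the body. No test compares the states. In percentiles, tied genes count with a weight of 0.5.

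The members, the 11 other gene lists and the alternatives were chosen with earlier results of these data known. Named genes are every member; the nearest coding neighbour on each side within 200 kb; neighbours at least 90% covered in one list and at 0% in the other; the closest family gene by 4 shares; and, per pathway list, up to 4 genes in NADs of 1 state with the largest difference in body share. STAT3, PRDM8, ESRRG, FGF2, FGF5 and YY2 fall outside this rule and were chosen after their values were seen.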

Additional observations from a re-analysis of the deposited data

How the results depend on the processing

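Over 10 alternatives, 23 of 46 values of the 4 member counts and 2 pooled flank shares stayed close to those reported (counts within 1.5 times; shares within the exact 95% binomial interval over grid steps, 29.4% to 38.9% naive and 44.7% to 54.8% primed, used only as a cut-off, since neighbouring steps are not independent and it is no error of the shares), and 23 moved. With at least 50% of the body required, 2 members were in naive NADs, 1 in naive only and 4 in primed only (34.7% of coding genes naive, 61.2% primed). With regions of at least 20 kb alone, 2 were in naive NADs and 0 in naive only (52.2% of coding genes naive, 69.7% primed). The coverage of KLF5 and PRDM14 is 1 step long, so neither stayed in naive only. The primed region over FGF4 is also 1 step long, so FGF4 was then in neither list. Primed only held 3 members, ZFP42, KLF2 and KLF17, as KLF2 and KLF17 lost their naive coverage. The flank shares were then 20.6% and 40.6%. With regions of at least 100 kb alone, 0 were in naive NADs, 0 in naive only, 1 in primed NADs (KLF2) and 1 in primed only (1.85% of coding genes naive, 37.6% primed). The members' flank shares in that setting were 0% and 26.3%. At the bin of a listed start, 3 of 7 members were in naive NADs, 0 in naive only and 1 in primed only (44.6% of coding genes with a listed start naive, 67.4% primed). These counts were set against those of all 10 members. Part of their move is therefore the loss of PRDM14, FGF4 and SUSD2, which have no listed start. With bodies extended by 10 kb, 9 were in naive and 8 in primed NADs (89.8% of coding genes naive, 86.7% primed). Of these, 1 was in primed only (ZFP42), as FGF4 gained naive coverage. The 2 in naive only were KLF4 and PRDM14, as KLF5 gained primed coverage. Merging gaps of 10 kb gave shares of 41.6% and 56.5%, and of 50 kb 71.7% and 74.8%. Without KLF2 and SUSD2, on chromosomes 19 and 22, the shares were 28.7% and 37.7%. In each alternative with both shares the primed one was the higher. Narrower flanks (100 kb) gave 31.1% and 48.4%, and wider ones 34.8% and 50.1%. No paired analysis was possible because each state has 1 list made from all its replicates, so leaving out a replicate was not run either. Depth is unknown, and what it limits could not be measured.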
